A study of Arabidopsis thaliana with 16 samples.

Results

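Mature somatic embryos of the Arabidopsis vtc2 mutant were compared with those of the wild type (WT). All samples labelled as mature somatic embryos were taken, which gave 4 of the 16 arrays of the series, 2 of vtc2 and 2 of WT. Both genotypes were in the Col-0 background. The vtc2 plants carried vtc2-5, a homozygous T-DNA insertion allele represented by a single line, and WT was Col-0 itself. In both genotypes, bent-cotyledon zygotic embryos were cultured on medium with the synthetic auxin 2,4-D and the explants that formed callus were moved to medium without hormone, where embryos were collected after 14 d. Each array held labelled RNA of 1 biological replicate on the ATH1 GeneChip, which reports 1 signal per probe set, an intensity on a linear scale with no physical unit. The other 12 arrays covered the zygotic embryos that entered culture and explants at day 7 (D7I) and day 14 (D14I) of induction in both genotypes. They served to estimate the spread between replicates and as a comparison for the genotype effect.

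Ascorbate (vitamin C) is the main water-soluble antioxidant of plant cells and is made largely through L-galactose. VTC2-type enzymes, GDP-L-galactose phosphorylases, carry out the committed step of that route. In somatic embryogenesis, auxin drives explant cells into callus, and embryos form and mature once auxin is withdrawn. A maturing embryo stores proteins and oil and loads late embryogenesis abundant (LEA) proteins, much as a zygotic embryo does in the seed. The comparison asked which transcripts differed when somatic embryos matured with less ascorbate. Since whole embryos were extracted, a lower share of cells of a given type and less RNA in each such cell cannot be told apart in any difference below.

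The 4 arrays differed in more than genotype. The median signal was 168.7 and 175.3 on the vtc2 arrays, against 198.7 and 191.2 on the WT arrays, while the other 12 arrays lay between 147.5 and 187.0. Replicates correlated at 0.955 in vtc2 and at 0.922 in WT over all probe sets, and arrays of different genotype at 0.914 to 0.935. Replicates lay over 4-fold apart for 1416 probe sets in vtc2 embryos and for 2250 in WT embryos, and the 7 groups other than WT embryos had 1309 to 1794. The ratio of the 3′ to the 5′ control probe set of the housekeeping gene GAPDH, which grows as RNA is shortened, was 2.27 and 2.22 in vtc2 embryos and 1.29 and 1.72 in WT embryos, with 0.80 to 3.08 on the other 12 arrays. For actin the same ratio overlapped between genotypes, at 10.2 and 14.0 in vtc2 and 15.9 and 10.8 in WT. It also overlapped for ubiquitin, at 3.9 and 5.4 in vtc2 and 3.5 and 4.0 in WT. The 25S ribosomal RNA probe set read 461.8 and 19484 in vtc2 and 10996 and 119.6 in WT, so that it followed neither genotype nor replicate number. The part of RNA quality in the differences below was not tested.

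The maturation label could be checked on the transcripts of storage proteins, oil body proteins and LEA proteins, of which 7 were measured. Their median signal was 2717 and 2705 on the vtc2 arrays, against 40.6 and 3789 on the WT arrays. OLEO3, an oleosin that coats oil bodies, read 12146 and 11401 in vtc2, and 92.6 and 6991 in WT. PAP85, a vicilin-type storage protein, read 9125 and 12164 in vtc2, and 87.5 and 11430 in WT. LEA4-5 read 4832 and 5516 in vtc2, and 52.2 and 7141 in WT. Maturation transcripts were therefore abundant in vtc2 replicates 1 and 2 and in WT replicate 2, and nearly absent from WT replicate 1. Their median log2 difference was 3.08 with both WT arrays, -0.33 without WT replicate 1 and 6.63 without WT replicate 2, and 0 of the 7 passed the test. WT replicate 1 thus stood apart from its label. The counts, gene lists and named genes of the rule below were also computed without it, and the centring by gene span was not.

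Differences are log2 values of vtc2 minus WT, given with their standard error from a limma fit of all 16 arrays. A probe set was called when its Benjamini-Hochberg adjusted p was under 0.05 and it differed at least 2-fold. Of 22746 probe sets, 384 (1.69%) were called higher and 490 (2.15%) lower in vtc2 embryos, 874 (3.84%) in all. At an unadjusted p under 0.05 there were 5902. The median difference over all probe sets was -0.15, and changes are best read against that shift. Differences in the higher direction were the larger ones. The median size was 1.84 on the log2 scale for the probe sets called higher and 1.22 for those called lower, and 67 called probe sets were over 8-fold higher, against 22 over 8-fold lower. The vtc2 and WT arrays did not overlap for 4305 probe sets in the higher direction (18.9%) and for 7370 in the lower direction (32.4%). Of the probe sets that pair with 1 gene, 194 of 13513 (1.44%) were called higher and 280 (2.07%) lower.

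**Figure D1:**
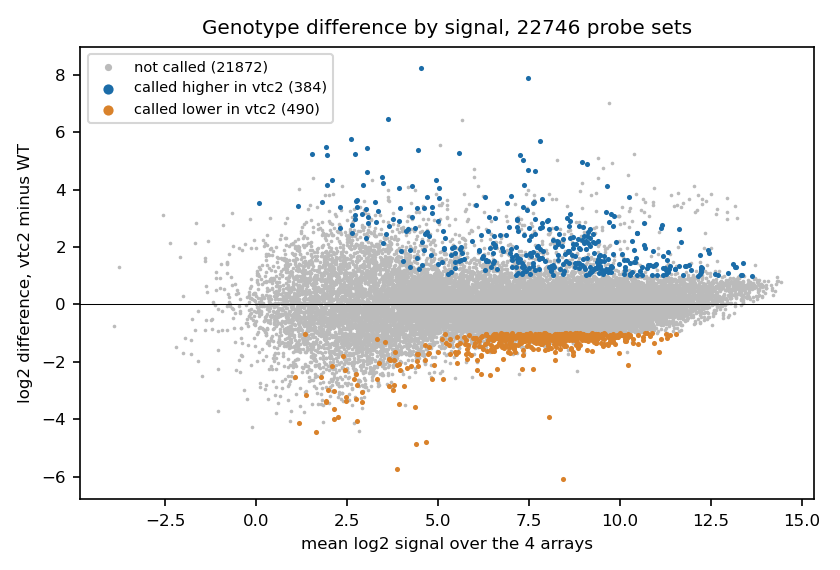
Log2 difference (vtc2 minus WT, vertical axis) of each of the 22746 probe sets against its mean log2 signal over the 4 arrays (horizontal axis). Coloured points are the 384 probe sets called higher and the 490 called lower in vtc2, and grey points were not called.

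The calls rest on the spread pooled over the 16 arrays. In a limma fit of the 4 embryo arrays alone, 0 probe sets passed after adjustment, and 3106 had an unadjusted p under 0.05. Without WT replicate 1 the fit called 198 higher and 129 lower, and 208 of the 874 calls remained. Without WT replicate 2 it called 958 and 966, without vtc2 replicate 1 it called 38 and 36, and without vtc2 replicate 2 it called 77 and 123. All 874 called probe sets kept their direction in each of these fits. This result was fixed in advance, since the vtc2 and WT arrays did not overlap for any called probe set. The p values measure the spread between these arrays and no other source of error.

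The 12 genes that led the increase had mean signals of 117.1 (AT1G76960) to 4417 (AT2G45180) in vtc2 embryos and of 1.49 to 454.9, for the same genes, in WT embryos. The first of them, AT5G38170, belongs to the lipid transfer proteins, small secreted proteins that bind lipids outside the cell. It read 3281 and 2246 in vtc2 embryos, against 1.14 and 118.1 in WT embryos (log2 difference 7.87 ± 1.64, adjusted p = 0.0302). The WT arrays lay far apart, so that the fold depends on the weak signal of WT replicate 1. With 30 added to every signal before the logarithm the difference was 40.4-fold, and without WT replicate 1 it was 4.52 (adjusted p = 0.0347). Its neighbours on the chromosome belong to the same family and ran the same way without passing the test. AT5G38180 read 496.6 and 433.0 in vtc2, and 0.92 and 31.7 in WT (6.42, adjusted p = 0.0553), and AT5G38160 read 1149 and 882.1 in vtc2, and 19.6 and 255.7 in WT (3.83, adjusted p = 0.0522). Both were chosen after their values were seen, and whether the probe sets of these relatives read each other's transcripts was not tested.

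Among the other leading genes, ECS1, which encodes a secreted cell wall protein linked to the response to Xanthomonas, read 3699 and 2368 in vtc2 and 82.8 and 118.9 in WT (4.90 ± 0.90, adjusted p = 0.0206). AT2G43590, a chitinase family gene, read 1089 and 960.3 in vtc2, and 20.4 and 81.4 in WT (4.65 ± 0.51, adjusted p = 0.00498). THI2.2, one of the thionins, small antimicrobial peptides, read 834.5 and 576.4 in vtc2, and 36.0 and 41.8 in WT (4.16 ± 0.94, adjusted p = 0.0352). In all 3 genes both vtc2 arrays lay far above both WT arrays. The calls of ECS1 and THI2.2 were lost without WT replicate 1 (adjusted p = 0.0813 and 0.117) at nearly the same size of difference, 4.64 and 4.05. The call of AT2G43590 held whichever array was left out.

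The tightest of the large differences was that of AT1G09310, a gene with no symbol in the annotation. It read 3490 and 3148 in vtc2, against 232.9 and 156.6 in WT (4.12 ± 0.28, adjusted p = 0.00149), and its call held whichever array was left out. AT2G22880, which encodes a short protein of the VQ motif family, read 295.6 and 294.4 in vtc2 and 10.01 and 5.74 in WT (5.28 ± 0.56, adjusted p = 0.00498). AT1G76960 read 107.9 and 126.3 in vtc2 and 0.81 and 2.17 in WT (6.46 ± 0.68, adjusted p = 0.00498). The signals of the last gene in WT were at the floor of the array, and with 30 added to each signal its difference was 4.66-fold. AT3G05600 was 3.78 higher (adjusted p = 0.00498), and AT5G52760, AT1G19210, an ethylene response factor family gene, AT4G27654 and AT2G45180, another relative of the lipid transfer proteins, were 3.74 to 4.34 higher. Among the 12 leading genes, the calls of AT1G76960, AT2G22880, AT2G43590, AT1G09310 and AT3G05600 held in each of the 4 fits without 1 array. Those of the other 7 were lost without vtc2 replicate 1 and without vtc2 replicate 2.

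Genes lower in vtc2 embryos had smaller differences and weaker signals. AT4G01390 read 3.21 and 4.64 in vtc2, against 151.6 and 84.0 in WT (-4.87 ± 0.53, adjusted p = 0.00498), and AT5G24240 read 6.24 and 3.75 in vtc2, against 164.4 and 108.1 in WT (-4.78 ± 0.76, adjusted p = 0.0158). In both genes the vtc2 signals were at the floor of the array. AT5G10770, an aspartic protease family gene, had the strongest WT signal of this group and read 115.7 and 40.1 in vtc2 and 1071 and 976.5 in WT (-3.91 ± 1.01, adjusted p = 0.0498). Its call was lost in each of the 4 fits without 1 array. TGH (TOUGH), an RNA-binding G-patch protein that takes part in RNA processing, read 57.9 and 56.5 in vtc2 and 269.5 and 172.3 in WT (-1.91 ± 0.23, adjusted p = 0.00699). AT5G15700, a phage-type RNA polymerase gene of the organelles, read 44.2 and 20.7 in vtc2 and 135.6 and 162.7 in WT (-2.29 ± 0.34, adjusted p = 0.0121). The other 7 leading genes, AT1G72840, AT1G59660, AT1G26680, AT1G16830, AT4G23000, AT4G01930 and the subtilisin-type protease gene ATSBT5.2, were lower by 1.75 to 2.47. Of these 12 genes, AT4G01390, AT5G15700 and TGH kept their calls whichever array was left out. The others lost theirs without vtc2 replicate 1 and without WT replicate 1. All 12 kept their direction, which could not change because their arrays did not overlap.

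**Figure D2:**
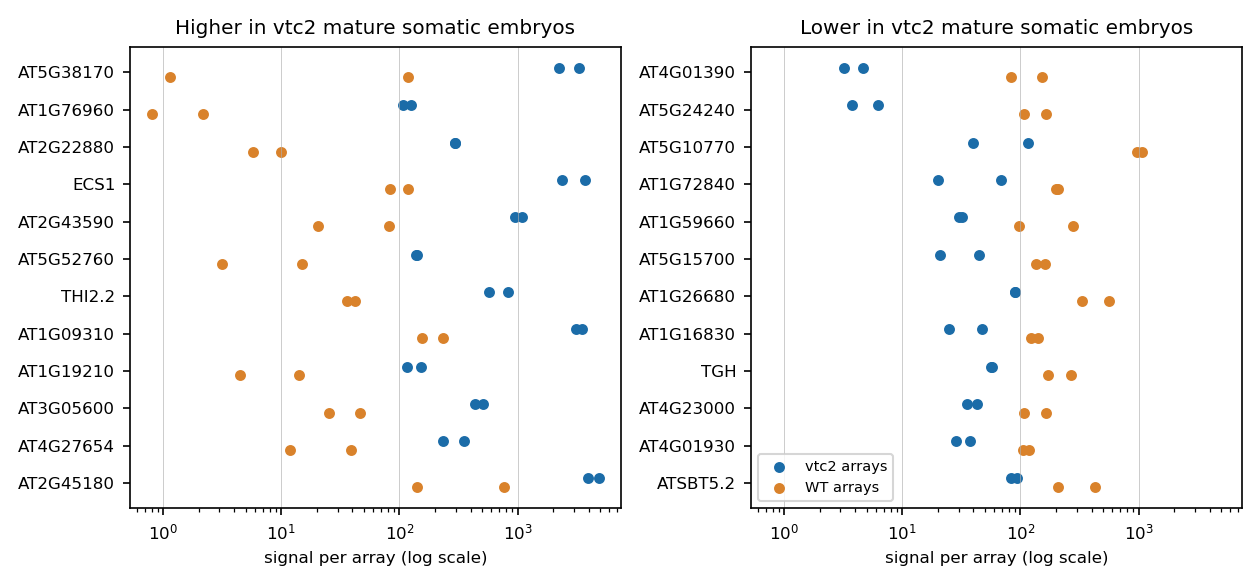
Signal per array (log scale) of the 12 genes with the largest called increase (left) and of the 12 with the largest called decrease (right) in vtc2, with 1 point per array and vtc2 arrays drawn above WT arrays. In each gene the 2 vtc2 points do not overlap the 2 WT points, as the choice of genes required, and WT signals near 1 mark the weakest readings.

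Regulators that respond to wounding, touch and the fungal wall polymer chitin had the highest share of calls among the lists of 5 or more probe sets. Of 10 measured members 6 were higher (background 1.69%) and 0 were lower, and the list median was 2.13, against -0.15 over all probe sets. WRKY53, a transcription factor of senescence and defence, read 260.2 and 223.5 in vtc2 and 19.5 and 43.4 in WT (3.05 ± 0.55, adjusted p = 0.0194). CML38, a calmodulin-like calcium sensor, read 958.1 and 1227 in vtc2 and 134.3 and 157.7 in WT (2.90 ± 0.50, adjusted p = 0.0178), and its neighbour AT1G76640 (CML39) read 23.2 and 25.3 in vtc2 and 1.12 and 7.78 in WT (3.03, adjusted p = 0.0494). All 4 signals of AT1G76640 were weak, and with 30 added to each its difference was 1.58-fold, below the limit for a call. STZ, a zinc finger repressor of abiotic stress responses also known as ZAT10, read 2884 and 3947 in vtc2 and 563.5 and 639.0 in WT (2.49, adjusted p = 0.0315). ORA47, an ethylene response factor family regulator of jasmonate synthesis, was 2.54 higher and TET8, a tetraspanin of the plasma membrane and extracellular vesicles, 1.42 higher. The ubiquitin ligase genes PUB22, PUB23 and PUB24 were not called, with differences of 1.39, 0.81 and 0.12. Without WT replicate 1, without vtc2 replicate 1 and without vtc2 replicate 2 the list had 0 calls, and without WT replicate 2 it had 6. Its median ranged from 1.76 to 2.17 in these fits.

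Calcium sensors as a family ran higher but with fewer calls. Of 36 probe sets for calmodulin-like proteins, a list put together after values had been seen, 5 were higher (background 1.69%) and 0 were lower. The median was 0.60, and 19 had non-overlapping arrays in the higher direction (background 18.9%). AT5G39670 read 259.8 and 225.5 in vtc2, against 48.2 and 41.8 in WT (2.43 ± 0.27, adjusted p = 0.00498). AT2G41090 read 419.6 and 391.3 in vtc2 and 70.8 and 17.1 in WT (3.54, adjusted p = 0.0402), and AT3G25600 read 1148 and 1259 in vtc2 and 538.7 and 483.7 in WT (1.24, adjusted p = 0.0274). The other members called were CML38 and AT1G76640. Leaving out WT replicate 1, vtc2 replicate 1 or vtc2 replicate 2 left 1 call. Of 6 WRKY transcription factors, which act widely in defence, WRKY53 and WRKY22 were higher. WRKY22 read 133.6 and 138.8 in vtc2 and 34.8 and 63.2 in WT (1.54, adjusted p = 0.0258).

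Genes known for induction by low oxygen were higher as well. Of 11 measured members 6 were called higher (background 1.69%) and 0 lower, with a median of 1.42. In that direction 9 had non-overlapping arrays (background 18.9%). AT1G33055 was among the strongest signals of the chip, at 16967 and 12210 in vtc2 embryos and 4904 and 5923 in WT embryos (1.42 ± 0.30, adjusted p = 0.0313). AT4G10270 read 11358 and 9648 in vtc2 and 2573 and 3530 in WT (1.80 ± 0.31, adjusted p = 0.0177). AT5G10040 read 1213 and 1109 in vtc2 and 216.1 and 289.8 in WT (2.21, adjusted p = 0.035). AT3G10040 (HRA1), a transcription factor that dampens the low oxygen response, was 1.45 higher, AT4G24110 was 1.31 higher, and CML38 belongs to this list too. The increase was not particular to mature embryos. In vtc2 explants at D7I the list had a median of 1.58 and 4 higher calls, with AT5G10040 3.44 higher, AT1G33055 3.33 higher and AT3G10040 1.85 higher, while the median was -0.35 in zygotic embryos and -0.10 at D14I. The fermentation genes did not share the increase. PDC2, a pyruvate decarboxylase, read 1657 and 1720 in vtc2 and 2160 and 2490 in WT (-0.46, adjusted p = 0.206). AT4G17260, a lactate dehydrogenase gene, differed by 0.10 (adjusted p = 0.837). Calls fell to 0 without WT replicate 1, without vtc2 replicate 1 and without vtc2 replicate 2, where the median stayed between 0.92 and 1.52.

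Some genes of secreted proteins that act on surface lipids were also called higher, in 2 lists put together after values had been seen. Of 48 lipid transfer proteins 5 were higher (background 1.69%) and 0 lower, with a median of 0.80. Besides AT5G38170 and AT2G45180, AT5G01870 read 8649 and 7173 in vtc2 and 923.6 and 1771 in WT (2.62 ± 0.28, adjusted p = 0.00498), a call that held whichever array was left out. AT5G48490 read 624.1 and 750.0 in vtc2 and 83.4 and 40.8 in WT (3.55, adjusted p = 0.0167), and AT1G62500 read 2418 and 2684 in vtc2 and 119.1 and 704.6 in WT (3.14, adjusted p = 0.048). Of 74 GDSL-type lipases, a large family of secreted esterases with members that shape cutin, 7 were higher (background 1.69%) and 0 lower. The family as a whole lay close to the other probe sets, with a median of 0.24 that was -0.23 without WT replicate 1. AT3G16370 read 1300 and 1076 in vtc2 and 119.9 and 145.2 in WT (3.16 ± 0.39, adjusted p = 0.00714), and AT5G45670 read 554.1 and 559.1 in vtc2 and 73.0 and 106.6 in WT (2.66 ± 0.29, adjusted p = 0.00498). AT1G29660, AT1G71691, AT4G01130, AT1G75900 and AT2G03980 were higher by 1.45 to 3.46. Without WT replicate 1, 4 lipid transfer proteins and 5 GDSL-type lipases were called, against 10 and 11 without WT replicate 2, 1 and 1 without vtc2 replicate 1 and 1 and 2 without vtc2 replicate 2. The median of the lipid transfer proteins was 0.27 without WT replicate 1.

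Among 35 genes of cell wall loosening and pectin turnover, 4 were higher (background 1.69%) and 0 lower. The list median of -0.14 was close to that of all probe sets. The 4 belong to enzymes and proteins that act on xyloglucan and wall extension. XTH18, a xyloglucan endotransglucosylase/hydrolase, read 634.4 and 695.3 in vtc2 and 44.6 and 75.4 in WT (3.52 ± 0.58, adjusted p = 0.0171). Its neighbour XTH19 read 1569 and 1163 in vtc2 and 595.4 and 298.1 in WT (1.68, adjusted p = 0.0473), XTH16 was 1.69 higher and the expansin-like gene EXLA1 1.31 higher. All 4 calls were lost without WT replicate 1 and without either vtc2 array. ADPG1, a polygalacturonase of organ shedding and outside the list, read 24.0 and 26.9 in vtc2 and 0.68 and 0.47 in WT (5.49, adjusted p = 0.00737). It was chosen after its values were seen. All its signals were weak, and with 30 added to each the difference was 1.81-fold, below the limit for a call.

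Photosynthesis genes of the nucleus were shifted together by a smaller amount. All 11 measured members had positive differences, with a median of 0.99. In the higher direction 10 had non-overlapping arrays (background 18.9%), and 3 were called (background 1.69%). PSAE-1, a subunit of photosystem I, read 4749 and 3826 in vtc2 and 1805 and 1188 in WT (1.54 ± 0.32, adjusted p = 0.029). PSBW, a subunit of photosystem II, read 5137 and 6385 in vtc2 and 2342 and 2197 in WT (1.34 ± 0.16, adjusted p = 0.00699). LHCB4.1, an antenna protein of photosystem II, read 6841 and 6732 in vtc2 and 4054 and 2561 in WT (1.08 ± 0.28, adjusted p = 0.0499). RCA, rubisco activase, read 8234 and 7660 in vtc2 and 4631 and 3451 in WT (0.99, adjusted p = 0.128), which missed the test despite clear separation. The call of PSBW held whichever array was left out, and those of PSAE-1 and LHCB4.1 did not. The list median was 1.36 without WT replicate 1 and 0.84 after quantile normalization.

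Transcripts of the plastid genome did not divide the genotypes. Their median signal was 54.1 and 575.5 on the vtc2 arrays, against 216.6 and 64.0 on the WT arrays, so that the arrays interleaved. Of 69 probe sets 0 were called by limma, with a median of 0.76 that was 2.13 without vtc2 replicate 1 and -0.64 without vtc2 replicate 2. In each genotype the array with the higher 25S ribosomal RNA signal also had the higher plastid signal. Counting these embryo groups, this held in 5 of the 8 groups of the series. At D14I it ran the other way in both genotypes, so that the series showed no general link. Mitochondria-encoded transcripts (23 probe sets) had a median of 0.34 and 0 calls.

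**Figure D3:**
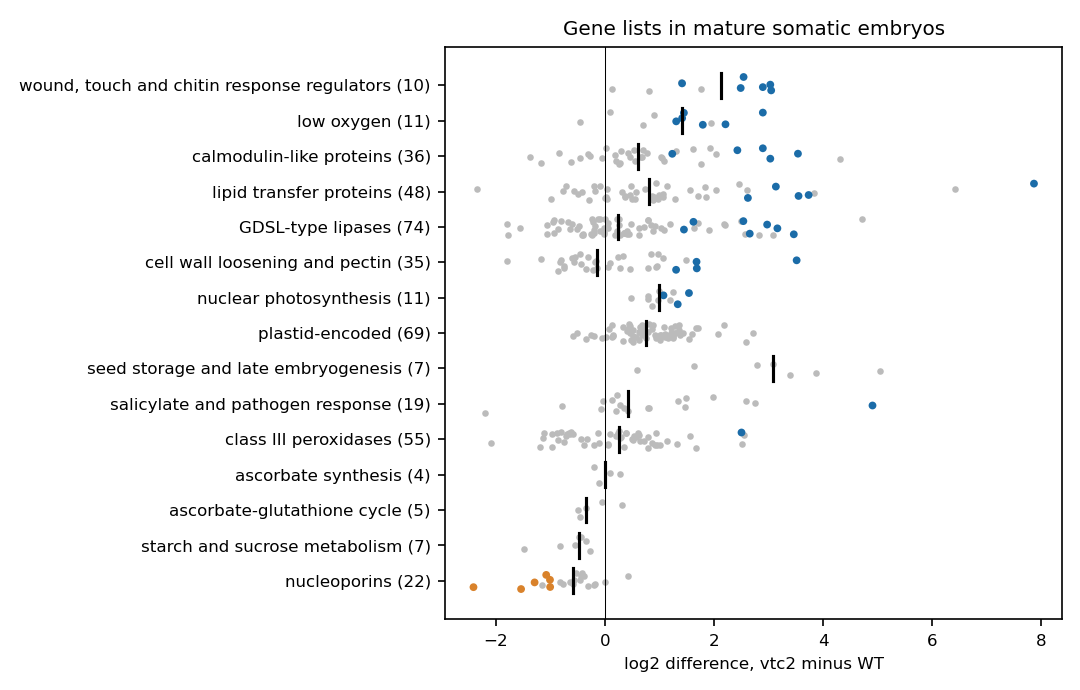
Log2 difference (vtc2 minus WT, horizontal axis) of each probe set in 15 gene lists, with the number of probe sets in parentheses and a vertical bar at the list median. Blue points were called higher and orange points lower in vtc2, and grey points were not called. The bars run from 3.08 (seed storage and late embryogenesis, 0 calls) to -0.58 (nucleoporins, 6 lower calls).

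The list with the most calls in the lower direction was that of the nucleoporins, the building blocks of the nuclear pore. Of 22 probe sets 6 were lower (background 2.15%) and 0 higher, with a median of -0.58, and 17 had non-overlapping arrays in the lower direction (background 32.4%). NUP155, a scaffold subunit, read 547.7 and 602.2 in vtc2 and 1507 and 1306 in WT (-1.29 ± 0.22, adjusted p = 0.0177). NUP1, a subunit of the nuclear basket, read 202.0 and 280.1 in vtc2 and 714.9 and 666.0 in WT (-1.54 ± 0.25, adjusted p = 0.0163). AT1G59660 read 32.2 and 30.2 in vtc2 and 279.4 and 98.2 in WT (-2.41, adjusted p = 0.0217), and AT4G11790 was lower by 1.08, while AT3G15970 and AT4G38760 were called just past the 2-fold limit (2.01-fold each). A second probe set of AT4G38760, with weak signals, differed by -0.53 and was not called. The list was put together after values had been seen. Its lower calls numbered 3 after median centring, 3 after quantile normalization, 0 without WT replicate 1, 0 without vtc2 replicate 1 and 1 without vtc2 replicate 2, and its median stayed between -0.40 and -0.66.

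The following lower genes were picked one by one after their values were seen and stand for no tested group. SPY and SEC, the related O-linked glycosyltransferases that modify nuclear proteins and act in gibberellin signalling, were both lower. SPY read 516.0 and 568.6 in vtc2 and 1466 and 1195 in WT (-1.29, adjusted p = 0.0311), and SEC read 662.0 and 846.0 in vtc2 and 1788 and 1379 in WT (-1.07, adjusted p = 0.026). IYO (MINIYO), which promotes transcription elongation and the onset of differentiation, read 153.8 and 167.1 in vtc2 and 403.9 and 402.8 in WT (-1.33 ± 0.18, adjusted p = 0.00952). The co-repressor gene SEU was lower by 1.65, the chromatin remodeller genes INO80 and CHR17 by 1.07 and 1.15, NRPA2, a subunit of RNA polymerase I, by 1.05 and the helicase gene RECQ4A by 2.04. The leucine-rich repeat receptor kinase gene AT3G24240 read 601.4 and 518.4 in vtc2 and 2081 and 1588 in WT (-1.70 ± 0.21, adjusted p = 0.00737), and its call held whichever array was left out. Its relative AT5G48940 was lower by 1.46. SPY, SEC, SEU, INO80, CHR17, NRPA2 and AT5G48940 were called in 1 of the 4 fits without 1 array. Most of these genes are long, and after each array was centred by gene span the differences were -0.68 for SPY (adjusted p = 0.285), -0.46 for SEC, -0.46 for INO80, -0.53 for CHR17, -0.43 for NRPA2 and -0.72 for IYO (adjusted p = 0.106), so that these 6 lost both the call and the 2-fold size. SEU (-1.12, adjusted p = 0.0554), AT5G48940 (-1.02, adjusted p = 0.0987) and RECQ4A (-1.43, adjusted p = 0.113) lost the call but not the 2-fold size. AT3G24240 kept its call (-1.27, adjusted p = 0.0222).

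Single members of several other lists were called. GI (GIGANTEA), a component of the circadian clock, read 483.7 and 522.7 in vtc2 and 1180 and 1123 in WT (-1.20 ± 0.17, adjusted p = 0.01), a call that was lost without vtc2 replicate 1. Its gene is long, at 6040 bp, and after each array was centred by gene span its difference was -0.58 (adjusted p = 0.19). TRXF2, a plastid thioredoxin that activates enzymes of carbon fixation, read 624.6 and 606.0 in vtc2 and 218.2 and 209.1 in WT (1.53 ± 0.23, adjusted p = 0.0132) and was the only one of 8 other antioxidant genes that was called. YAB5, a YABBY factor of the lower side of leaves, read 223.5 and 160.3 in vtc2 and 25.4 and 74.4 in WT (4.36-fold, adjusted p = 0.0315), 1 of 5 measured genes of shoot and leaf. COR15A, a cold-regulated chloroplast protein, was 1.27 higher (adjusted p = 0.0465), while the 4 other genes of cold and dehydration were not called. Hop3, a co-chaperone, was lower by 1.04, 1 of 7 genes of the heat shock list, and the sugar carrier gene SWEET1 read 397.9 and 291.2 in vtc2 and 569.1 and 1028 in WT (-1.17, adjusted p = 0.048), 1 of 17 sugar transporters. ECS1 was the 1 of 19 genes of salicylate and pathogen response that was called, against 4 without WT replicate 2. Of 55 class III peroxidases 1 was called higher, AT1G34510, at 17.7 and 12.5 in vtc2 and 2.54 and 2.73 in WT. With 30 added to each signal, COR15A, Hop3 and AT1G34510 differed less than 2-fold. The calls of TRXF2, YAB5, COR15A, Hop3, SWEET1 and AT1G34510 were lost without vtc2 replicate 1 and without vtc2 replicate 2. Those of YAB5, COR15A, Hop3 and AT1G34510 were also lost without WT replicate 1, and those of COR15A and SWEET1 without WT replicate 2.

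Genes of ascorbate metabolism showed no call. The gene carrying the vtc2 insertion was not analysed here, so that its transcript did not serve to check the genotype labels. Of the synthesis pathway 4 genes were measured, with a median difference of -0.004. GME, the epimerase that makes GDP-L-galactose, read 2930 and 2450 in vtc2 and 2588 and 2437 in WT. VTC4, the phosphatase after the VTC2 step, read 1910 and 2079 in vtc2 and 2678 and 1704 in WT, and GLDH, the last enzyme of the route, read 306.9 and 365.0 in vtc2 and 339.1 and 430.4 in WT. In these 3 genes the genotypes overlapped. PMM, a phosphomannomutase, was 0.28 higher (adjusted p = 0.467). The 5 measured genes of the ascorbate-glutathione cycle had a median of -0.34. GR, a glutathione reductase, read 998.3 and 1059 in vtc2 and 1250 and 1682 in WT (-0.50, adjusted p = 0.13), and the stromal ascorbate peroxidase SAPX differed by -0.45 (adjusted p = 0.173). GR, GR1 and SAPX had non-overlapping arrays in the lower direction, with a background of 32.4%.

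Regulators and other tissue markers were also largely without calls. Of 4 embryo regulators 0 were called. BBM (BABY BOOM), an AP2 factor able to induce somatic embryos, read 107.3 and 129.3 in vtc2 and 229.5 and 235.5 in WT, and with a difference of -0.98 it passed the test (adjusted p = 0.0375) but not the 2-fold limit. Of 6 endosperm and seed coat genes 0 were called, and their signals were at most 272.8 on any of the 4 arrays. Of 3 root genes and 6 genes of epidermis, trichomes and stomata 0 were called. Lists of 47 UDP-glycosyltransferases, 42 AGAMOUS-like MADS-box factors, 19 auxin genes, 14 glutathione S-transferases, 7 cell cycle genes and 6 histones had 0 calls in the limma fit, with medians between -0.22 and 0.21. The 7 genes of starch and sucrose metabolism all had negative differences, with a median of -0.47 and 0 calls. PWD, a phosphoglucan, water dikinase of starch breakdown, came closest, at 614.3 and 782.0 in vtc2 and 1139 and 1336 in WT (-0.83, adjusted p = 0.0399), below the 2-fold limit. Another gene of the list, at a different locus, carries the same symbol and did not reach an adjusted p under 0.05.

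Of 45 genes that the study names for mature somatic embryos, 10 had a probe set matched by locus here. Plastid genes that the study gives as higher, such as psaC, carry other locus names here and were missed by this match. They were measured within the plastid list, of whose 69 probe sets 0 were called. Of the 10 matched genes, AT5G38170, AT5G01870, WRKY53 and ECS1 were called higher, as given above. BGLU28, a beta-glucosidase, was called lower, at 71.2 and 69.3 in vtc2 and 182.9 and 276.5 in WT (-1.68 ± 0.41, adjusted p = 0.0414), a call lost in each of the 4 fits without 1 array. The 5 others did not pass the test. AGL87, a MADS-box factor, read 785.8 and 634.3 in vtc2 and 12.8 and 155.6 in WT (3.98, adjusted p = 0.0525), and AT5G18600, a glutaredoxin gene, read 379.8 and 449.8 in vtc2 and 73.0 and 130.8 in WT (2.08, adjusted p = 0.0611). Neither overlapped between genotypes. AT3G62550 differed by 2.45 (adjusted p = 0.126) and the plant defensin gene PDF1.4 by 1.49 (adjusted p = 0.148). AT3G22490, a LEA-type gene of seeds, read 30.4 and 54.7 in vtc2 and 2.68 and 326.1 in WT, so that its difference was 0.46 with both WT arrays and -3.0 without WT replicate 1. The study chose these genes on the same arrays, and they are not independent evidence of a direction.

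The genotype effect in mature somatic embryos was then set against that of the earlier stages by contrasts within the same fit. Against the mean effect of the 3 other stages, 486 probe sets (2.14%) had a higher and 998 (4.39%) a lower effect in mature somatic embryos. These 1484 (6.52%) included 710 of the 874 called in the embryos, in the same direction, which is 81.2%. Against D7I alone 2583 (11.4%) differed, against zygotic embryos 131 (0.576%) and against D14I 23 (0.101%). All of these contrasts share the 4 embryo arrays. Without WT replicate 1 the first count was 388, without vtc2 replicate 1 it was 101, without vtc2 replicate 2 it was 546, and without WT replicate 2 it was 2998.

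The leading genes of this contrast had different levels before maturation. AT1G76960 read 0.56 to 3.05 on all 12 arrays of the earlier stages, at the floor of the array, so that its excess in mature embryos rests on vtc2 embryos alone. It was 6.80 ± 0.79 (adjusted p = 0.00753), and 2.23 with 30 added to each signal. ECS1 was weak before maturation too, at 1.44 to 34.3. AT2G22880 was at the floor in zygotic embryos and read 138.9 and 58.9 in vtc2 and 401.1 and 186.8 in WT at D7I, and its excess was 5.78 ± 0.65 (adjusted p = 0.00684). AT2G43590 was among the strong signals at D7I, with 8586 and 9746 in vtc2 and 24108 and 15729 in WT, and at D14I, with 2852 and 2309 in vtc2 and 5042 and 5032 in WT. It was at the floor in zygotic embryos, and its effect in mature embryos exceeded the mean of the others by 5.58 (adjusted p = 0.00684). AT5G38170 was already 2.90 higher in vtc2 at D14I, at 697.5 and 1239 in vtc2 and 124.1 and 125.2 in WT. In zygotic embryos of both genotypes it was among the strongest signals, at 18544 and 18303 in vtc2 and 23940 and 19789 in WT. The mature vtc2 embryos thus stood between the zygotic embryos and the WT somatic embryos in this gene. CML38 read 152.1 and 201.7 in vtc2 and 146.2 and 180.0 in WT zygotic embryos, levels close to those of WT somatic embryos.

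**Figure D4:**
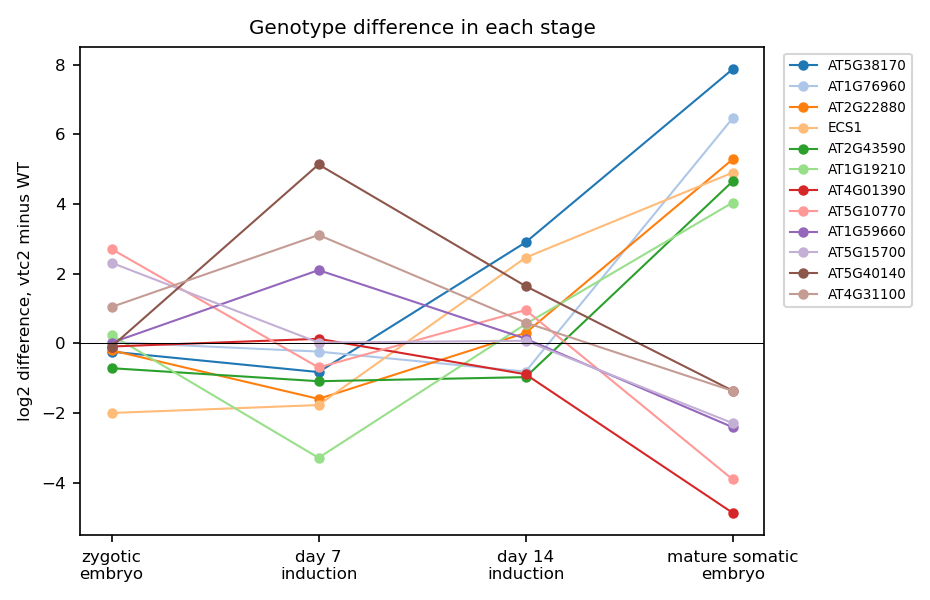
Log2 difference (vtc2 minus WT, vertical axis) at each of the 4 stages (horizontal axis) for the 12 genes with the largest change of the genotype effect between mature somatic embryos and the mean of the other stages. Each point is a mean of 2 arrays per genotype, and the 6 genes that end above 4 and the 6 that end below -1 in mature somatic embryos were chosen for that difference. Points of AT1G76960 and AT4G01390 before mature embryos are ratios of signals at the floor of the array.

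Probe sets called in mature embryos more often had the opposite direction at D7I when both WT arrays were used. Of the 384 probe sets called higher in embryos, 24 were called lower in vtc2 at D7I, which is 6.25% of them and 14.7% of the 163 lower calls at D7I (0.717% of all probe sets). Only 7 were called higher at D7I. Of the 490 called lower in embryos, 54 were called higher at D7I, which is 11% of them and 12% of the 451 higher calls at D7I (1.98%), and 3 were called lower. The median D7I difference was -0.38 for the probe sets called higher in embryos and 0.38 for those called lower, and the difference was above 0 for 26.6% and 77.8% of them, against 50% of all probe sets. In zygotic embryos 0 of the calls were shared in either direction and at D14I 2 were, with 8 (0.0352%) and 5 (0.022%) calls at those stages. No arrays are shared between the D7I comparison and that of the embryos. Both used the same spread of each probe set, estimated from all 16 arrays, so that their calls are not independent. A probe set with a small spread passes more readily at both stages, and the part of this in the shared counts was not tested. Without WT replicate 1 the relation was weaker among higher calls and was not seen among lower calls. The median D7I difference was then -0.21 for the 198 probe sets called higher and -0.03 for the 129 called lower, and the difference was above 0 for 32.8% and 47.3% of them. Gene span went with the genotype difference in opposite directions in mature embryos and at D7I, as given below. Its part in these opposite directions was not tested. AT4G01390 read 2.33 to 7.64 on all 12 earlier arrays, at the floor. AT5G40140 read 106.1 and 79.0 in vtc2 and 3.15 and 2.16 in WT at D7I, and 38.2 and 50.7 in vtc2 and 209.2 and 61.1 in WT mature embryos (-1.36, adjusted p = 0.269).

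The called genes also differed in length, which the choice of genes had not used. The span of a gene from start to end, introns included, was taken from RefSeq annotation (TAIR10.1). Its median was 1304 bp for 190 probe sets called higher and 3394 bp for 279 called lower, against 2122 bp for all 13367 with a span. In the decile of probe sets with the shortest genes 3.22% were called higher and 0.299% lower, and in the decile with the longest genes 0.15% were called higher and 7.18% lower. The median difference ran over the deciles between 0.23 and -0.56. Spearman's rho of span with the genotype difference was -0.308 across these 13367 probe sets in mature embryos, against 0.146 in zygotic embryos, 0.155 at D7I and 0.008 at D14I, as a description, since genes of 1 array are not independent. The relation had the same sign in each pairing of a vtc2 with a WT array, at -0.101 to -0.364. Without WT replicate 1 it was -0.154, and the median span was 1402 bp for 99 probe sets called higher and 3142 bp for 78 called lower. Between the replicates themselves rho was -0.118 in vtc2 and 0.224 in WT (replicate 1 minus replicate 2).

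When each array was centred within 20 bins of gene span, an alternative added after the spans were seen, all 469 called probe sets with a span kept their direction. Calls with this centring numbered 66 higher and 16 lower, against 176 and 250 without it when p was adjusted over the same 13367 probe sets. Of the probe sets called higher 177 still differed at least 2-fold, and of those called lower 99 did. The long nucleoporin genes, with a median span of 3271 bp, had 0 calls after this centring and a median of -0.23. Lists with higher calls lost calls as well. Regulators of wounding, touch and chitin went from 6 higher calls to 3, and low oxygen from 6 to 1. Calmodulin-like proteins went from 5 to 1 and lipid transfer proteins from 5 to 2. GDSL-type lipases went from 7 to 3, cell wall loosening and pectin from 4 to 1, and nuclear photosynthesis from 3 to 0. AT1G09310 (3.91, adjusted p = 0.00864), AT2G43590 (4.56, adjusted p = 0.00465), WRKY53 (3.01, adjusted p = 0.0301), XTH18 (3.43, adjusted p = 0.0196), AT4G01390 (-5.07, adjusted p = 0.00644) and TGH (-1.30, adjusted p = 0.0162) stayed called. Of the 12 leading genes in each direction 7 of the higher and 3 of the lower stayed called, and all 24 still differed at least 2-fold. ECS1 (adjusted p = 0.0538), THI2.2 (0.07) and AT5G10770 (0.134) were among those that lost the call, as were PSBW (0.059), PSAE-1 (0.114), ORA47 (0.0635) and STZ (0.0649) of the lists. Of 51 called genes named by the rule, 16 kept the call. The 3′ to 5′ ratio was higher in vtc2 embryos for GAPDH and overlapped between genotypes for actin and ubiquitin. The part of RNA quality in this pattern was not tested.

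**Figure D5:**
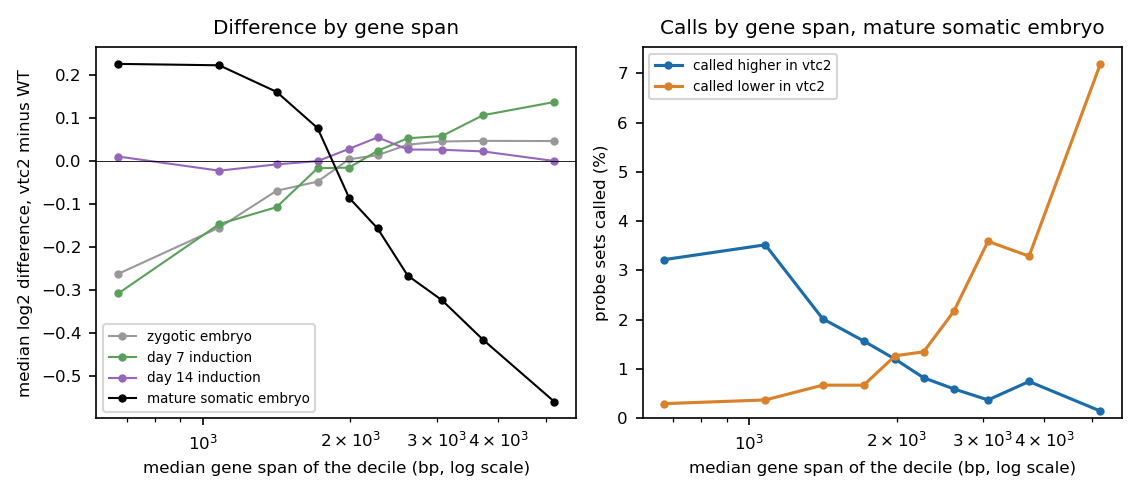
Median log2 difference (vtc2 minus WT) at the 4 stages (left) and percent of probe sets called in mature somatic embryos (right), in deciles of 13367 probe sets ordered by gene span (bp, log scale). In mature embryos the median falls from the short to the long genes, with 3.22% called higher in the shortest decile and 7.18% called lower in the longest.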

How the data were processed

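The deposited table holds 1 intensity per probe set and array on a linear scale, which the authors had scaled so that each array has the same mean after the top and bottom 2% were trimmed. The submitters' processing notes name GCOS, and the methods of the study describe RMA values, which these are not. No scanner image or probe values were used, so that these steps stand as the authors ran them, and the number of arrays limits precision. Intensities were converted to log2 as they were, with nothing added. limma 3.58.1 in R 4.3.3 was fitted to all 16 arrays with 1 mean for each of the 8 groups (8 residual and 1.62 prior degrees of freedom), with Benjamini-Hochberg adjustment over 22746 probe sets after 64 control probe sets were set aside. Calls required an adjusted p under 0.05 and a 2-fold difference, thresholds taken from the methods of the study, whose test across all groups at once was replaced by this contrast. The fit was tested on simulated data. Replicates are labelled as biological.

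The platform annotation gave 1 gene for 13513 probe sets (59.4%), more than 1 for 503 and none for 8730, and only those with 1 gene are named. RefSeq (TAIR10.1) matched 13436 of these and gave symbols, synonyms and spans. Genes shown by locus carry a family from general knowledge of that locus, since the annotation gives no description. Some genes are not reported here. The members and gene lists were chosen with earlier results of these data known, and the lists of lipid transfer proteins, class III peroxidases, GDSL-type lipases, calmodulin-like proteins and nucleoporins after values had been seen. Aliases that matched a different gene were removed. Named genes are, by rule, up to 12 each way with the largest difference among called probe sets with 1 gene, non-overlapping arrays and a mean signal of at least 100 in the higher group, the called list members, genes that the study names for mature somatic embryos, and up to 6 each way by the difference between stages. Others are marked as chosen after their values were seen.

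Alternatives were an offset of 30, quantile normalization, median centring, a filter at a mean signal of 30, a trended prior, array weights, the 4 arrays alone, a replicate block, other thresholds, 1 probe set per gene, leaving out each array, centring by gene span and crossed replicate numbers, the last 2 added after seeing the data. The labels number the replicates without saying that a number is shared between genotypes. Deviations of replicate 1 from the group mean correlated at -0.137 between vtc2 and WT embryos. Over the 28 pairs of groups they correlated at -0.137 to 0.165 (median -0.02), so that the embryo pair was the lowest. The main fit did not pair replicates, and these correlations cannot decide whether arrays were paired under crossed numbers.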

Additional observations from a re-analysis of the deposited data

Results flagged for a closer look

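For 1484 probe sets the genotype effect in mature somatic embryos differed from the mean effect of the 3 other stages, by a limma contrast of the effects themselves, and the 12 genes below led that difference. The effect was higher in mature embryos by 7.26 on the log2 scale for AT5G38170, 6.80 for AT1G76960, 5.78 for AT2G22880, 5.58 for AT2G43590, 5.34 for ECS1 and 4.87 for AT1G19210. It was lower for the other 6, by -4.90 for AT5G10770, -4.58 for AT4G01390, -3.59 for AT5G40140, -3.16 for AT1G59660, -3.10 for AT5G15700 and -2.95 for AT4G31100. AT5G40140 and AT4G31100 were not called in mature embryos themselves, with adjusted p of 0.269 and 0.142 in the limma fit, and at D7I read 106.1 and 79.0 in vtc2 and 3.15 and 2.16 in WT for AT5G40140, and 75.5 and 98.6 in vtc2 and 5.18 and 19.3 in WT for AT4G31100. AT1G76960 and AT4G01390 were at the floor of the array at all earlier stages, and with 30 added to each signal their differences between stages were 2.23 and -2.04. AT5G10770 read 198.3 and 391.2 in vtc2 and 53.0 and 34.4 in WT zygotic embryos.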

How the results depend on the processing

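The number of calls did not hold under the alternatives. All 874 called probe sets kept their direction under each alternative that tested them, but most alternatives could not have changed it. The vtc2 and WT arrays of these probe sets did not overlap. Only quantile normalization, median centring and centring by gene span could have reversed a direction. Against 384 higher and 490 lower calls, limma gave 0 and 0 with the 4 embryo arrays alone, 61 and 32 with array weights, 577 and 1016 with no fold limit, 2168 and 2058 with a 2-fold limit and no p, and 642 and 436 with a 2-fold gap between the nearest arrays. Median centring gave 539 and 186, so that 74.3% of calls were higher, against 43.9% without it, 59% with an offset of 30 and 58.4% after quantile normalization. Median centring moved the median of all probe sets to 0.03. Leaving out 1 array gave 38 to 958 higher calls and 36 to 966 lower calls, the fewest without vtc2 replicate 1 and the most without WT replicate 2. With the replicate number as a block, which the labels and the correlations do not support as a pairing, 1 higher and 0 lower calls were left, and 0 probe sets differed between stages in any of the 4 contrasts. With crossed numbers, chosen after seeing the data, the block gave 5 and 2. The 1484 probe sets that differed from the mean of the other stages became 524 with array weights and 101 to 2998 without 1 array. The 131 that differed from zygotic embryos became 7 with array weights, 483 with the filter on weak signals, 740 with the offset, 629 with a trended prior and 1 to 990 without 1 array. The 2583 that differed from D7I became 946 to 4370 without 1 array. The 23 that differed from D14I became 321 with the filter, 59 with median centring, 532 with the offset, 98 after quantile normalization, 340 with a trended prior and 3 to 857 without 1 array. The cause of these changes was not tested. Fits that left out arrays also had fewer samples and residual degrees of freedom. For named genes, 1382 combinations with an alternative gave 731 with the same call, 628 that lost it, 23 that gained it and 0 called genes that reversed. Signals under 30 limit the folds of the weakest genes.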

Other observations

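Among called genes in chromosome order, 31 consecutive pairs lay up to 3 genes apart, of which 10 were both higher, 10 both lower and 11 opposite in direction. Opposite pairs included AT3G24240 (-1.70) with AT3G24250 (2.96) and AT4G24100 (-2.10) with AT4G24110 (1.31). AT3G16660 and AT3G16670, which lie 3 genes apart, were both higher, at 195.4 and 210.7 in vtc2 and 28.1 and 41.5 in WT for AT3G16660 (limma log2 difference 2.57, adjusted p = 0.00498) and at 2748 and 2575 in vtc2 and 908.5 and 109.2 in WT for AT3G16670 (3.08, adjusted p = 0.0405). The call of AT3G16660 held whichever of the 4 arrays was left out, and that of AT3G16670 was lost without either vtc2 array, with differences of 1.55 to 4.61 over the 4 fits. AT3G23170 and AT2G25510, named here after their values were seen, were strongly expressed and held their calls in the same way. AT3G23170 read 2524 and 1969 in vtc2 and 272.8 and 337.1 in WT (2.88 ± 0.29, adjusted p = 0.00498), and AT2G25510 read 4791 and 3891 in vtc2 and 677.9 and 546.0 in WT (2.83 ± 0.32, adjusted p = 0.00498). FD, a bZIP factor that works with the flowering signal FT, had weak signals of 6.31 and 3.34 in vtc2 and 36.6 and 70.3 in WT (-3.46 ± 0.64, adjusted p = 0.021). With 30 added to each signal FD differed 2.35-fold. Its call was lost without WT replicate 1 and without either vtc2 array. AT4G16980 had 2 probe sets that ran the same way, 1 of which was called (2.45, adjusted p = 0.0303) and 1 of which, with weak signals, was not (3.11, adjusted p = 0.0552). The called probe set lost its call without WT replicate 2 and without either vtc2 array.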
